A study of Mus musculus with 16 samples.

Results

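The comparison described here sets 4 libraries of cultured mouse cortical neurons that received Twist1 shRNA 2 against 4 that received a control shRNA, 8 of the 16 libraries of the series, chosen by their labels and matched by the experiment named in each label. All 8 held neurons of Swiss Webster embryos (embryonic day 16) that were transduced on day 5 in vitro (DIV 5) with a lentivirus expressing exon 1 of huntingtin (Htt) with 72 glutamines (72Q), an expanded tract of the kind that causes Huntington disease. A second lentivirus given on the same day carried a short hairpin RNA (shRNA), directed either at Twist1 (the hairpin labelled 2) or at luciferase, which mouse cells lack (control). RNA was taken on DIV 10 and ribosomal RNA was removed with Ribo-Zero before sequencing. Both groups therefore carried mutant exon 1 and a hairpin virus, and neither the promoters of the vectors nor the share of transduced cells is given in the labels. Each group had 1 library per experiment (exp107, exp108, exp109a and exp109b in the labels), and values of single libraries are listed in that order below. Libraries of 72Q with Twist1 shRNA 1 (n = 4) and of exon 1 with 25 glutamines (25Q) with the control shRNA (n = 4) serve only as reference levels. Apart from the experiment names, the labels do not say that replicates came from separate cultures, and p-values therefore cover only the spread among these libraries, which may be technical.

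Twist1 encodes a transcription factor of the basic helix-loop-helix (bHLH) class that acts in mesoderm and the neural crest of the embryo. It pairs with E proteins such as those encoded by Tcf3, Tcf4 and Tcf12, and the pair binds E-boxes, short sites of the form CANNTG, where it can raise or lower transcription. It is best known for epithelial-mesenchymal transition and for craniofacial and limb development, and adult neurons are not a usual site of its expression. A hairpin lowers a transcript by pairing of its guide strand, and a guide can also pair in part with other transcripts, so 2 hairpins against 1 gene are commonly compared.

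Because Twist1 acts through E-boxes, the start regions of 4 genes on which the results below turn are shown, from 250 bases before to 50 after the annotated start (RefSeq, GRCm38.p6, 5′ to 3′ on the gene's strand), with each CANNTG in capitals. They are Rspo1 and Acvr1c, the genes with the largest rise, and Elavl3, the most abundant of the 4 genes with the largest fall. The last is Hoxd8, which had the largest rise of the HOX genes tested. The windows are chr4:124986180-124986479 for Rspo1 (plus strand), chr2:58357709-58358008 for Acvr1c (minus strand, the RefSeq start lying 137 bp from that in the files), chr9:22051974-22052273 for Elavl3 (minus strand) and chr2:74704365-74704664 for Hoxd8 (plus strand).
Rspo1: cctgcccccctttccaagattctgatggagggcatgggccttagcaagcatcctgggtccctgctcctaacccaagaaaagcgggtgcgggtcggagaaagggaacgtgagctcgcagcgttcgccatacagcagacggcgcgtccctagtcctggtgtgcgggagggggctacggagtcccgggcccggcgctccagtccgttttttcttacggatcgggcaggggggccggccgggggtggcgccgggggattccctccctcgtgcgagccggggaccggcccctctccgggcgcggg
Acvr1c: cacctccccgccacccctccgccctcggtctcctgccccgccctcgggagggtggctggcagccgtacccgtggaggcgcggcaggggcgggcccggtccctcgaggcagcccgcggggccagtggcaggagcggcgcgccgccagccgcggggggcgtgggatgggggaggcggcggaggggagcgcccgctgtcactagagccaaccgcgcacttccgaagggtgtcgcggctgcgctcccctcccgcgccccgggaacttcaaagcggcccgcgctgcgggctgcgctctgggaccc
Elavl3: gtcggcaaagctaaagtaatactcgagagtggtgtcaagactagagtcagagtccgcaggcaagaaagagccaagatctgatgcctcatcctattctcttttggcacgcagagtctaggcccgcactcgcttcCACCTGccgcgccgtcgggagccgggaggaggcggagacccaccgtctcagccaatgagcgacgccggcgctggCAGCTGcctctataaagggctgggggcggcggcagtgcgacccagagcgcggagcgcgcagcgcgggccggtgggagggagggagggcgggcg
Hoxd8: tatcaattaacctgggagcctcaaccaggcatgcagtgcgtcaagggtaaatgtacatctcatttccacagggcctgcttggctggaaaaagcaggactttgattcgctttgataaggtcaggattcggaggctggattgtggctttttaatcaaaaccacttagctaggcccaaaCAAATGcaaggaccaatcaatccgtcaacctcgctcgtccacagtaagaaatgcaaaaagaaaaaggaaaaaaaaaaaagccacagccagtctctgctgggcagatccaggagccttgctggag
The windows of Rspo1 and Acvr1c held no CANNTG, that of Elavl3 held 2 (CACCTG and CAGCTG) and that of Hoxd8 held 1 (CAAATG). A RefSeq start region could be matched to 11359 of the 15103 genes tested, and 63.06% of these held at least 1 CANNTG, which reads the same on both strands. Among genes that rose at least 2-fold with shRNA 2, 77 of 111 matched genes held one (69.4%), and among genes that fell at least 2-fold, 33 of 49 did (67.35%). CATATG, 1 form of the E-box, was present in 3 of the 111 and 1 of the 49 start regions, against 1.67% of all matched genes. CAGATG or its reverse complement CATCTG was present in 12 of the 111 and 5 of the 49, against 11.5% of all. CAGCTG was present in 23 of the 111 (20.7%) and 8 of the 49 (16.3%), against 15.4% of all, and CACGTG in 9 and 3 (8.11% and 6.12%), against 9.94%. These matches describe the letters in the windows and say nothing of binding.

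Twist1 itself (ENSMUSG00000035799, chr12:33957671-33959817) was low in every library. The control libraries held 3.29, 5.08, 3.84 and 4.39 CPM (counts scaled to a common library size with TMM factors), from 54, 87, 68 and 85 counts. With shRNA 2 the levels were 1.40, 2.19, 1.29 and 1.70 CPM, from 26, 40, 27 and 32 counts. The lowest control library lay above the highest shRNA 2 library. The mean went from 4.15 ± 0.763 to 1.64 ± 0.403 CPM (SD, n = 4), 39.6% of the control, and the log2 fold change was -1.29 ± 0.20 (± SE, adjusted p = 2.97e-06, edgeR quasi-likelihood test with Benjamini-Hochberg adjustment). Libraries with shRNA 1 held 1.82, 1.69, 0.904 and 1.87 CPM, and the difference of shRNA 2 from shRNA 1 was 0.07 ± 0.24 log2 units (95% interval -0.43 to 0.56, adjusted p = 0.826). The 25Q libraries were lower than all of these at 0.271 ± 0.225 CPM, and 72Q with shRNA 2 remained 2.18 ± 0.36 log2 units above 25Q (adjusted p = 3.39e-07).

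Library totals were 16589889 to 18745536 counts in the control group and 16976220 to 19533034 with shRNA 2, so depth differed little between the groups. TMM factors were 0.990 to 1.03 in the controls and 1.04 to 1.08 with shRNA 2. In a principal component analysis of the 8 libraries, PC1 (34.9% of the variance) separated the groups and PC2 (24.6%) the experiments. Markers of neurons summed to 15951 to 18215 CPM in the controls and 14763 to 16756 CPM with shRNA 2, and those of microglia to 25.5 to 31.8 and 27.6 to 33.5 CPM, so markers of the labelled cell type were abundant in all 8 libraries. Mitochondrial-genome transcripts took 3.16% to 3.59% of counts in the controls and 2.10% to 2.78% with shRNA 2. In bulk RNA, fewer cells of a type and less RNA per cell cannot be told apart.

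With Twist1 shRNA 2, 6307 of 15103 genes tested differed from the control (41.8%, adjusted p under 0.05), of which 3057 were higher (20.2%) and 3250 lower (21.5%). Without the experiment as a term of the fit, 3621 were called, 1691 higher (11.2%) and 1930 lower (12.8%), all of them among the 6307. Changes were mostly small: 3114 of the called genes (49.4%) moved by less than 1.25-fold, 653 rose and 492 fell by at least 1.5-fold, and 152 rose (1.01% of genes tested) and 65 fell (0.430%) by at least 2-fold. The within-experiment difference had 1 sign in all 4 experiments for 6014 of the called genes (95.4%), against 8112 of all 15103 genes tested. A fit with the experiment as a term favours genes of this kind, so the share among called genes is only a description. The split between higher and lower moved with the scaling. Higher genes made up 48.5% of calls with TMM, 50.7% with DESeq2's size factors, 57.1% with upper-quartile factors (3682 higher, 2767 lower) and 65.3% without scaling beyond library totals (4380 and 2328, or 29.0% and 15.4% of genes tested), while the median of all genes went from 0.0015 to 0.075 log2 units. Genes that rose at least 2-fold were scarce transcripts, with a median control level of 1.01 CPM, whereas those that fell at least 2-fold had a median of 58.0 CPM, against 20.9 CPM for all genes tested.

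**Figure D1:**
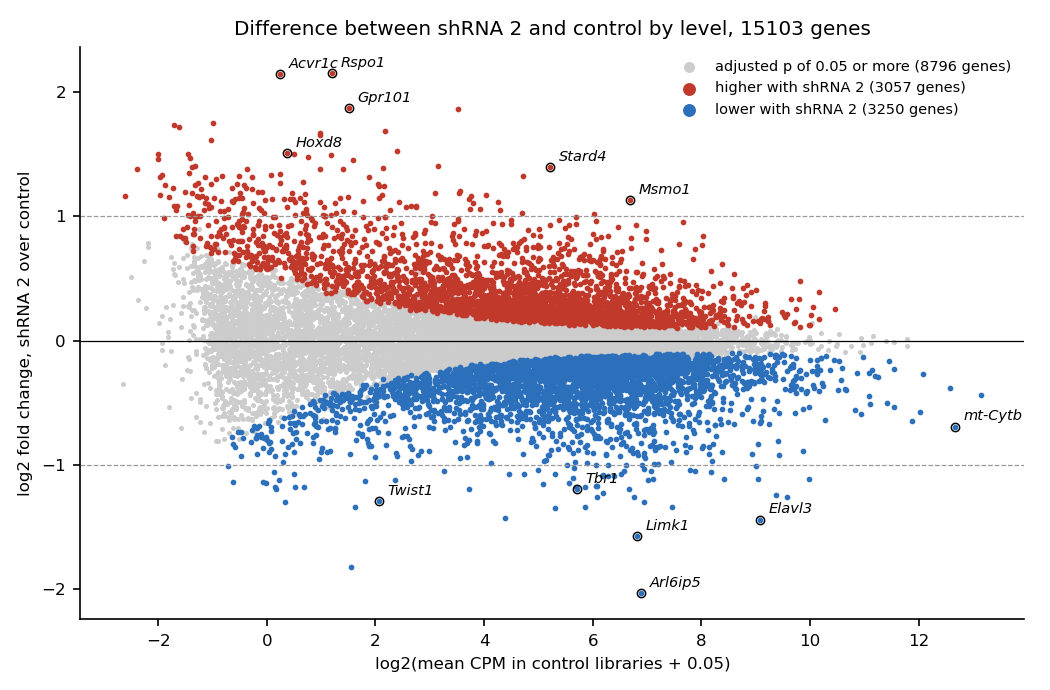
Each point is 1 of the 15103 genes tested, with the log2 of its mean control CPM (plus 0.05) on the x axis and the log2 fold change of shRNA 2 over control on the y axis, and dashed lines mark 2-fold. Large rises gather at low levels (Rspo1, Acvr1c, Gpr101), and large falls reach into abundant transcripts (Elavl3, Limk1, Arl6ip5).

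The largest falls included well-expressed neuronal transcripts. Values in parentheses after a pair of levels are log2 fold changes of shRNA 2 over control ± SE. Arl6ip5 (ENSMUSG00000035199, chr6:97210689-97233315), whose product binds and restrains a neuronal glutamate transporter, was at 122, 124, 111 and 116 CPM in the controls and at 29.7, 28.9, 27.5 and 29.4 CPM with shRNA 2. The 2 groups lay far apart, at a fitted difference of -2.03 ± 0.05 log2 units (adjusted p = 5.94e-24). With shRNA 1, Arl6ip5 was at 132, 128, 124 and 127 CPM, 0.11 ± 0.04 from the control. Limk1 (ENSMUSG00000029674, chr5:134656039-134688590), a kinase that inactivates the actin-severing protein cofilin, went from 115, 107, 113 and 115 to 37.8, 33.0, 39.0 and 41.8 CPM, again without overlap (-1.57 ± 0.05). Elavl3 (ENSMUSG00000003410, chr9:22015005-22052023), which encodes a neuronal RNA-binding protein of the Hu family, went from 542, 470.2, 597 and 557 to 206, 155, 211 and 230.3 CPM (-1.44 ± 0.05, adjusted p = 3.82e-18). The shRNA 1 libraries held 529.6, 528, 608 and 583 CPM of Elavl3, within or near the control range. Gdap1 (ENSMUSG00000025777, chr1:17145362-17164271), encoding a mitochondrial outer-membrane protein mutated in an inherited neuropathy, went from 164, 187, 168 and 181 to 64.2, 62.7, 73.3 and 76.1 CPM (-1.34 ± 0.05). In each of these genes the 4 shRNA 2 libraries were below every control library.

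Nptxr, the neuronal pentraxin receptor of excitatory synapses, was abundant in the controls at 759.9 ± 91.2 CPM and was at 319 ± 52.3 CPM with shRNA 2 (-1.26 ± 0.05). Txnip, an inhibitor of thioredoxin, fell from 109 ± 23.1 to 45.2 ± 7.45 CPM (-1.26 ± 0.06), and Wiz, a zinc finger partner of the G9a and GLP histone methyltransferases, from 124 ± 13.3 to 50.4 ± 6.27 CPM (-1.29 ± 0.06). The scarce transcript of Atp12a, an ion pump of the H,K-ATPase family, fell from 2.86 ± 0.424 to 0.733 ± 0.235 CPM (-1.82 ± 0.22). Large falls were also seen in Mfsd9 (-1.43 ± 0.08), Bean1 (-1.35 ± 0.08), Ascc2 (-1.34 ± 0.06), Tmem184b (-1.25 ± 0.06) and Zfp362 (-1.22 ± 0.06). The adjusted p-values of these genes lay between 5.94e-24 and 1.69e-08. In 25Q neurons Bean1 stood at 87.8 CPM, above its level in both 72Q groups, and Limk1 at 84.9 CPM, between them.

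The largest rises started from low levels. Rspo1 (ENSMUSG00000028871, chr4:124986430-125009099), a secreted protein that strengthens Wnt signalling, was at 2.80, 0.759, 3.28 and 2.17 CPM in the controls and at 12.8, 5.14, 13.9 and 9.55 CPM with shRNA 2. Library exp108 was the lowest in both groups, and the groups did not overlap (2.15 ± 0.19, adjusted p = 2.60e-09). Acvr1c (ENSMUSG00000026834, chr2:58267453-58357895), the activin receptor-like kinase ALK7, went from 1.52, 0.875, 1.41 and 0.723 to 5.64, 6.07, 5.62 and 4.03 CPM (2.14 ± 0.17), and with shRNA 1 it stood in between at 3.94, 3.02, 3.62 and 3.18 CPM. Gpr101 (ENSMUSG00000036357, chrX:57496668-57503757), an orphan G protein-coupled receptor, went from 2.80, 2.10, 2.94 and 3.30 to 8.65, 6.84, 12.4 and 13.9 CPM (1.87 ± 0.15), while the shRNA 1 libraries held 2.88, 1.23, 2.20 and 4.55 CPM and overlapped the controls. Sh3bgrl2, a small protein of the thioredoxin fold, was the best-expressed of these genes and rose from 11.4 ± 1.91 to 41.7 ± 2.94 CPM (1.86 ± 0.08).

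Further G protein-coupled receptors were among the 15 largest rises, namely the proton sensor Gpr4 (1.92 to 6.27 CPM, 1.65 ± 0.15), the incretin receptor Glp1r (0.443 to 1.58 CPM, 1.61 ± 0.35) and Pgr15l (2.95 to 8.30 CPM, 1.45 ± 0.12). Baiap3, a MUNC13-related protein, rose from 5.23 ± 0.453 to 15.2 ± 1.53 CPM (1.53 ± 0.12), and Sytl1, a Rab27 effector, rose from 0.45 ± 0.194 to 1.79 ± 0.423 CPM (1.74 ± 0.31). Others were the guanine nucleotide exchange factor Arhgef16 (1.66 ± 0.15), the transporter gene Slc35d3 (1.50 ± 0.19), the calcium-binding protein Cabp7 (1.47 ± 0.20), the forkhead factor Foxf1 (1.49 ± 0.19) and Hoxd8 (1.51 ± 0.20). The adjusted p-values of the rises described lay between 1.95e-16 and 1.07e-04, and all had 1 sign in the 4 experiments, as the naming rule required. Among transcripts of at least 50 CPM the largest rises included Stard4, Msmo1 and Mvd (described with cholesterol synthesis), Cacng3, and Miga1, a mitochondrial fusion factor, from 66.3 ± 9.50 to 129 ± 14.2 CPM (0.96 ± 0.06).

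**Figure D2:**
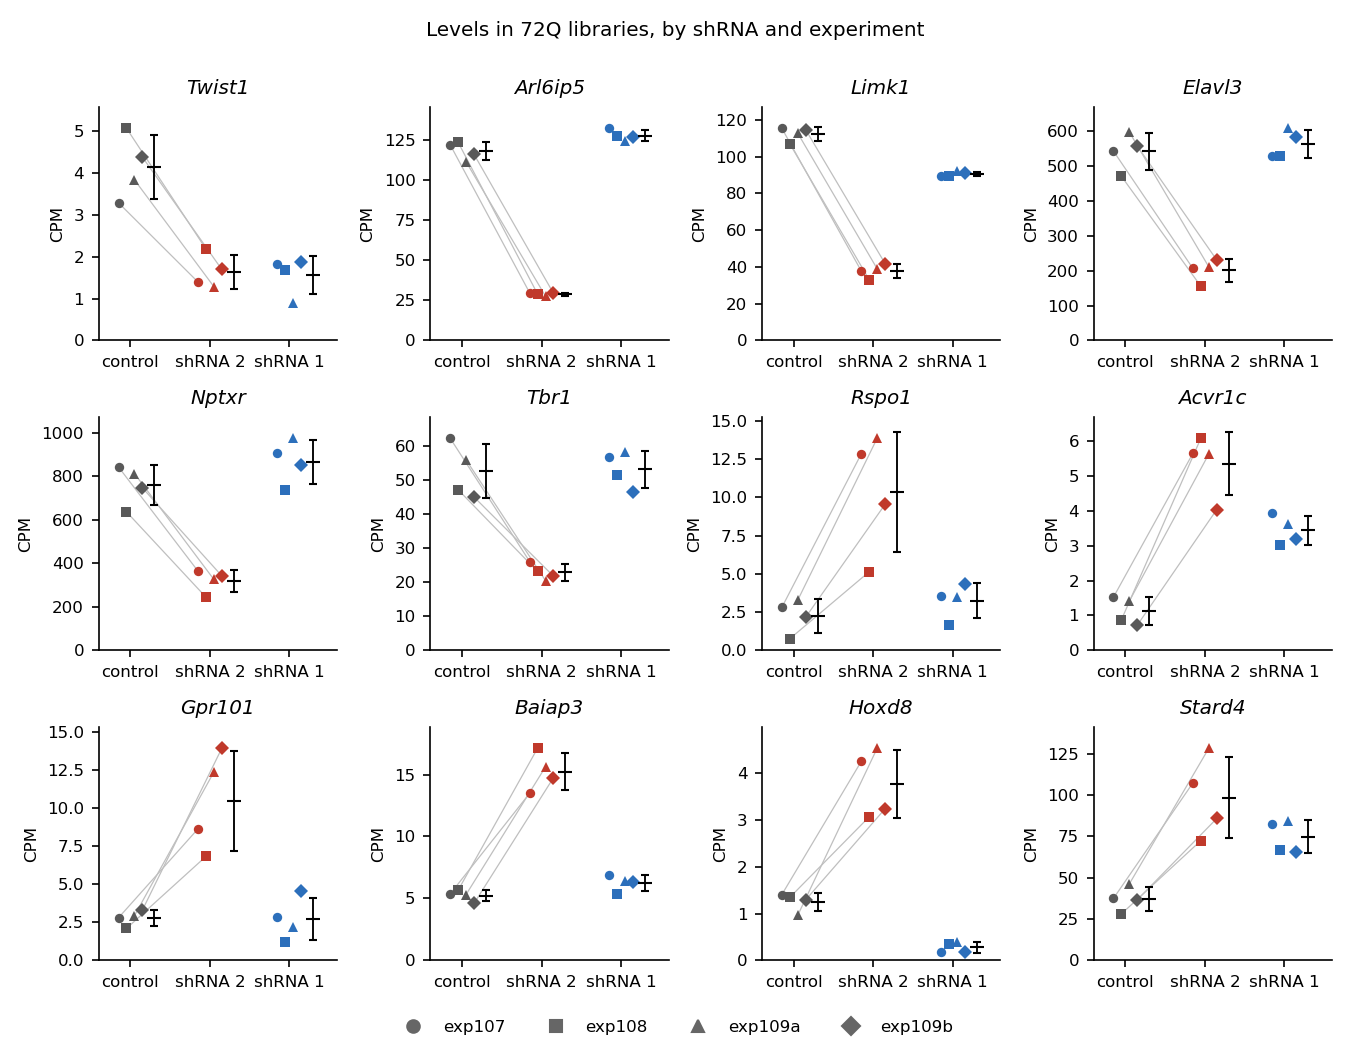
Points are TMM-scaled CPM of single libraries of 72Q neurons (symbol shape gives the experiment), grey lines join the control and shRNA 2 libraries of 1 experiment, and black marks are means with SD (n = 4). Control and shRNA 2 libraries do not overlap in any of the 12 genes, and in Arl6ip5, Elavl3, Tbr1, Gpr101 and Baiap3 the shRNA 1 libraries lie at or near control levels.

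Genes of cholesterol synthesis and uptake rose together. Of 36 members tested, 25 rose and 3 fell (69.4% and 8.33%, against 20.2% and 21.5% of all genes), with a median of 0.48 log2 units against 0.0015 for all genes. Stard4, which carries sterols between membranes, was at 37.5, 28.1, 46.3 and 36.6 CPM in the controls and 107, 72.5, 128 and 85.9 CPM with shRNA 2, without overlap (1.40 ± 0.13, adjusted p = 7.75e-06). The synthetic enzymes Msmo1, a sterol methyl oxidase, and Mvd, mevalonate diphosphate decarboxylase, rose from 103 ± 16.9 to 226 ± 30.6 CPM (1.13 ± 0.10) and from 65.0 ± 13.8 to 132 ± 28.6 CPM (1.02 ± 0.12). Sqle, which makes squalene epoxide, was picked for its role after its values were seen, and rose by 0.56 ± 0.08 log2 units, from 288 to 425 CPM. The members that fell were not synthetic enzymes: Abca1 and Abcg1, which export cholesterol from cells (-0.77 ± 0.05 and -0.28 ± 0.06), and Srebf1, a transcription factor mainly of fatty acid synthesis (-0.26 ± 0.05). The median was 0.51, 0.61, 0.50 and 0.46 in the 4 experiments.

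With shRNA 1, which shares the control libraries, 18 members were above and 6 below the control (background 22.7% and 23.6%), with a median of 0.25. In the direct comparison 19 of the 36 were higher and 7 lower with shRNA 2 than with shRNA 1, where 25.9% and 27.3% of all genes were called. Stard4, Msmo1 and Mvd were higher with shRNA 2 by 0.38 ± 0.13, 0.41 ± 0.09 and 0.48 ± 0.12 log2 units (adjusted p = 0.0253, 0.0027 and 0.00491). In the 25Q libraries Stard4, Msmo1 and Mvd stood at 70.1, 157 and 153 CPM.

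Developmental transcription factors, a list of HOX, LIM, T-box, forkhead, GATA, PAX, Iroquois and related genes that pattern tissues of the embryo, had the largest median difference between the hairpins among the 29 lists examined. The filter on low counts left 49 of 79 members, and 22 of these rose and 3 fell with shRNA 2 (against 20.2% and 21.5% of all genes), with a median of 0.43. The other 30 had at most 28 summed counts in the 4 control libraries and at most 47 in the 4 shRNA 2 libraries, and Hoxb4 and Hoxb7 had none in all 8. Counts and medians of the list describe only the members that passed, whose levels were low. Among all genes of the scarcest level bin described below (median 1.05 CPM), 11.5% were higher and only 5.30% lower. The small number of falls in the list therefore cannot be read against the 21.5% of all genes. Hoxd8 (ENSMUSG00000027102, chr2:74704615-74707933), a HOX gene of trunk patterning, was at 1.40, 1.34, 0.961 and 1.29 CPM in the controls and 4.24, 3.06, 4.53 and 3.24 CPM with shRNA 2, without overlap (1.51 ± 0.20, adjusted p = 1.60e-07). Irx2, an Iroquois factor, was at 1.40, 0.992, 0.961 and 1.19 and 3.33, 3.17, 2.33 and 3.34 CPM (1.34 ± 0.21). Foxf1, a mesenchymal forkhead factor outside this list, was at 1.28, 3.74, 1.36 and 2.53 and 6.12, 8.64, 4.72 and 6.15 CPM. The members that fell were Nkx2-2 (-0.61 ± 0.16), which also marks the oligodendrocyte lineage, the bHLH factor Tal1 (36.9 to 25.7 CPM, -0.51 ± 0.09), and Prrx1, a mesenchymal homeobox factor (-0.56 ± 0.11).

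The shRNA 1 libraries lay on the other side of the same controls. Hoxd8 was at 0.176, 0.358, 0.395 and 0.187 CPM with shRNA 1, below all controls, and Foxf1 at 0.823, 1.18, 1.58 and 1.50 CPM. Of the 49 members, none was above and 33 were below the control with shRNA 1 (22.7% and 23.6% of all genes), with a median of -0.83. Compared directly, 42 were higher and 2 lower with shRNA 2 than with shRNA 1 (25.9% and 27.3% of all genes), and the median difference was 1.49 log2 units. Hoxd8 differed by 3.29 ± 0.27 (adjusted p = 1.37e-12), Irx2 by 2.39 ± 0.25 and Foxf1 by 2.24 ± 0.21, while Tal1 differed by 0.00 ± 0.09 (adjusted p = 0.973), having fallen with both hairpins. In 25Q neurons the whole list summed to 34.5 to 37.7 CPM, against 136 to 163 CPM in the 72Q controls and 154 to 191 CPM with shRNA 2, ranges that overlap between the last 2 groups.

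**Figure D3:**
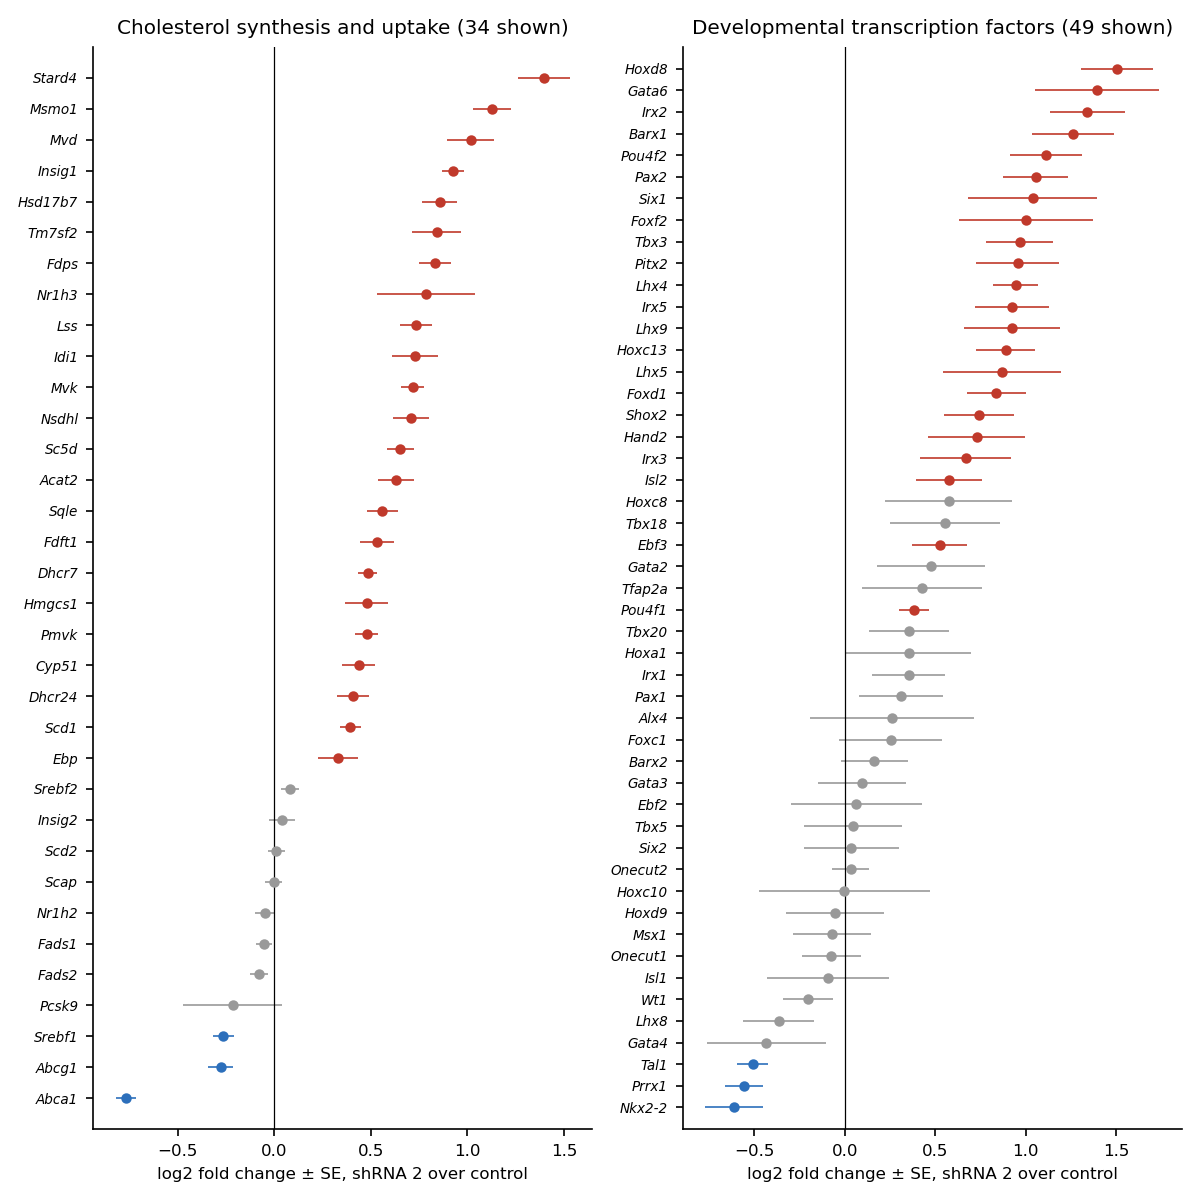
Points are log2 fold changes of shRNA 2 over control with SE for tested members of the cholesterol list and of the developmental factor list (the number shown is in each panel's title), red where higher and blue where lower at an adjusted p under 0.05, and grey otherwise. In the cholesterol list most members lie to the right with short bars. Most members of the developmental list also lie to the right, with longer bars at their low counts, and 22 were called higher.

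Transcripts of the mitochondrial genome, which encode core subunits of the respiratory chain, fell. All 7 of 13 members that could be tested were lower (21.5% of all genes), with a median of -0.57. The list's summed level was 21955 to 22845 CPM in the controls and 12649 to 17026 CPM with shRNA 2, and exp107 and exp109a were the lowest of the shRNA 2 libraries. Thus mt-Cytb, cytochrome b of complex III, was at 6527, 6566, 6692 and 6255 CPM in the controls and 3699, 4615, 3458 and 4378 CPM with shRNA 2 (-0.69 ± 0.10, adjusted p = 1.81e-04). The complex I genes mt-Nd5 and mt-Nd4 changed by -0.64 ± 0.11 and -0.59 ± 0.08. Another 5 (mt-Atp6, mt-Atp8, mt-Co3, mt-Nd3 and mt-Nd4l) are listed at 0 in all 8 libraries and mt-Co2 had 1 count in all, and none of these could be tested. With shRNA 1, 4 of the 7 were lower than the control and none higher (23.6% and 22.7% of all genes). Compared directly, 5 of the 7 were lower with shRNA 2 than with shRNA 1 (27.3% of all genes). A list of nuclear genes of oxidative phosphorylation, which includes regulators such as Tfam and Ppargc1b, leaned slightly the other way in the main fit. Of its 47 members 17 were higher and 2 lower (36.2% and 4.26%, against 20.2% and 21.5% of all genes). The median was 0.06 and the largest rise 0.28 log2 units. Without the experiment term 1 was higher and 1 lower (2.13% and 2.13%, against 11.2% and 12.8% of all genes), and without scaling 26 and 1 (55.3% and 2.13%, against 29.0% and 15.4%). Tfam, which maintains mitochondrial DNA, rose (0.23 ± 0.05) and Cox6a1 of complex IV fell (-0.36 ± 0.04).

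Among markers of other cells that such cultures hold beside neurons, those of the oligodendrocyte lineage, astrocytes and progenitors had more members lower than higher with shRNA 2. Of 15 oligodendrocyte-lineage markers tested, 11 fell and none rose (73.3% lower, against 21.5% of all genes), with a median of -0.49, and their summed level was 1199 to 1437 CPM in the controls and 811 to 1025 CPM with shRNA 2, without overlap. Pdgfra, the receptor of oligodendrocyte precursors, was at 355, 318, 339.6 and 319 and 249, 218, 217 and 227 CPM (-0.55 ± 0.05). Genes of maturing cells varied widely between experiments: Enpp6 was at 7.07, 10.6, 1.64 and 1.08 CPM in the controls and 2.85, 4.87, 0.714 and 0.583 CPM with shRNA 2 (-1.12 ± 0.22), lower in each experiment although the groups overlap, and Bcas1 at 36.4 ± 18.6 and 19.5 ± 10.9 CPM (-0.92 ± 0.09). Of 22 astrocyte markers 12 fell, 1 rose and 9 were not called (54.5% lower, median -0.16), among them Gja1, the gap-junction protein connexin 43, from 192 ± 26.4 to 128 ± 18.8 CPM (-0.59 ± 0.05), and Sox9 (-0.57 ± 0.07). Astrocyte sums were 6251 to 7224 and 5126 to 6440.3 CPM and overlapped. Of 16 progenitor markers 11 fell and 1 rose (68.8% lower, median -0.34). They include Notch1 (-0.49 ± 0.05) and Vim (-0.46 ± 0.05), and the riser was the proneural factor Neurog2, at 2.62 and 4.55 CPM (0.77 ± 0.16). Without the experiment term 5 oligodendrocyte, 7 astrocyte and 5 progenitor markers were called lower (33.3%, 31.8% and 31.2%, against 12.8% of all genes).

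Of 14 meningeal fibroblast markers tested (of 20), 8 rose and 1 fell (57.1% and 7.14%, against 20.2% and 21.5% of all genes). Without the experiment term 3 rose and 1 fell (21.4% and 7.14%, against 11.2% and 12.8%). The risers were scarce, such as Col1a1 at 0.476 and 1.35 CPM (1.30 ± 0.32) and Col6a1 at 4.29 and 7.86 CPM (0.86 ± 0.14), and the member that fell, Pdgfra, holds most of the list's summed level, 386 to 447 CPM in the controls and 312 to 354 CPM with shRNA 2. Endothelial and mural cells gave 8 testable markers of 16, with 2 higher (Rgs5 at 0.254 and 1.12 CPM, 1.73 ± 0.34, and Flt1, 1.22 ± 0.30) and 2 lower (Pdgfrb, -0.64 ± 0.11, and Cspg4, -0.43 ± 0.05). Each share was 25% of the markers tested, near the shares of all genes. The list's summed level, 190.1 to 209 CPM in the controls and 154 to 157 CPM with shRNA 2, is mostly Cspg4 (148 and 110.3 CPM), which is also on the oligodendrocyte-lineage list. The defining endothelial markers Cldn5 and Cdh5 had at most 3 summed counts in either group. Of 18 microglial markers 6 could be tested, with 1 higher (Aif1, 0.51 ± 0.10) and 1 lower (Mpeg1, -0.59 ± 0.25, a call lost without the experiment term and in 5 of the 8 fits that left out 1 library). Each was 16.7% of the microglial markers tested, again near the shares of all genes. Whether shifts in the makeup of the cultures took part in any other result was not tested.

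**Figure D4:**
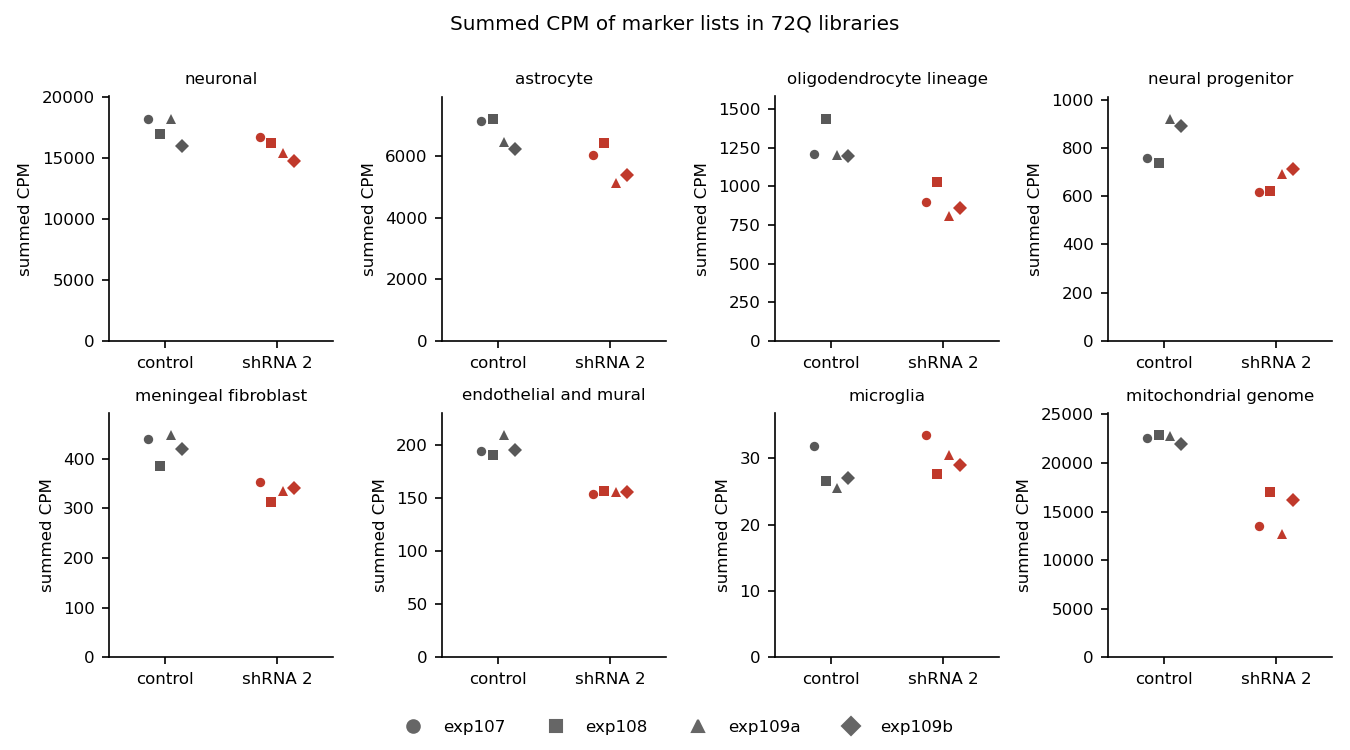
Each panel gives the summed CPM of 1 marker list, or of the mitochondrial-genome transcripts, in each control and shRNA 2 library, with symbol shape giving the experiment and the y axis starting at 0. The groups do not overlap for oligodendrocyte lineage, progenitor, meningeal, endothelial and mural, and mitochondrial sums, and they overlap for neurons, astrocytes and microglia. The meningeal sum is mostly Pdgfra and the endothelial and mural sum mostly Cspg4.

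Neuronal genes did not move as a block. Of 24 pan-neuronal markers 7 rose and 11 fell (29.2% and 45.8%, against 20.2% and 21.5% of all genes; 7 and 5 without the experiment term, 29.2% and 20.8%, against 11.2% and 12.8%), with a median of -0.06 that became 0.02 without scaling. Elavl3 was the extreme, and its close relative Elavl4, another Hu protein, rose from 95.9 ± 7.60 to 117 ± 6.96 CPM (0.29 ± 0.05). Alpha-internexin (Ina), an intermediate filament protein of axons, fell from 482, 526, 489 and 465 to 264, 279, 224 and 277 CPM (-0.91 ± 0.05) and the splicing factor Rbfox3 (NeuN) fell by 0.48 ± 0.08, whereas the glycolytic enzyme Eno2 rose by 0.34 ± 0.04 and the vesicle calcium sensor Syt1 by 0.33 ± 0.05. Compared directly, 17 of the 24 were lower and 5 higher with shRNA 2 than with shRNA 1 (70.8% and 20.8%, against 27.3% and 25.9% of all genes).

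Genes of presynaptic release were split in the same way, 12 of 42 higher and 14 lower (28.6% and 33.3%, against 20.2% and 21.5% of all genes). Without the experiment term 6 were higher and 9 lower (14.3% and 21.4%, against 11.2% and 12.8%). Without scaling the counts were 19 and 13 (45.2% and 31.0%, against 29.0% and 15.4%). Genes that fell at least 2-fold included Cplx1, a complexin that clamps and times fusion, at 476, 534, 551 and 552 CPM in the controls and 215, 230.4, 258 and 273 CPM with shRNA 2 (-1.11 ± 0.04), and Bsn, the active-zone scaffold bassoon, at 339.9, 264, 387 and 368 and 156, 115, 164 and 195 CPM (-1.11 ± 0.06). With shRNA 1 both were at control levels or a little above (554 and 353 CPM), and the differences of shRNA 2 from shRNA 1 were -1.18 ± 0.04 and -1.17 ± 0.06 log2 units. The largest rise in this list was in Cplx3, a complexin of sensory synapses, from 0.698 to 1.83 CPM (1.25 ± 0.29), and Rab3c, a vesicle GTPase, rose by less (0.32 ± 0.05).

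At the postsynaptic side, 18 of 44 glutamate receptor and scaffold genes rose and 10 fell (40.9% and 22.7%, against 20.2% and 21.5% of all genes; 10 and 6 without the experiment term, 22.7% and 13.6%, against 11.2% and 12.8%). Grin2a, the NMDA receptor subunit that accumulates as neurons mature, was at 13.2, 9.10, 12.5 and 11.8 CPM in the controls and 27.8, 21.2, 30.3 and 28.3 CPM with shRNA 2 (1.20 ± 0.08). Cacng3, which traffics AMPA receptors, rose from 41.3 ± 6.76 to 80.9 ± 12.3 CPM (0.97 ± 0.06), and its relative Cacng2 fell by 0.44 ± 0.06. The scaffold Shank1 fell from 235, 174, 273 and 201 to 121, 116, 114 and 131 CPM (-0.85 ± 0.09) and the adhesion protein Nlgn3 fell by 0.41 ± 0.05. For Grin2a and Cacng3 the difference between hairpins was -0.11 ± 0.07 and -0.06 ± 0.06 (adjusted p = 0.17 and 0.371), and for Shank1 it was -1.01 ± 0.09 (adjusted p = 1.62e-07). Of 40 inhibitory neuron genes and GABA or glycine receptor subunits, 15 rose and 4 fell (37.5% and 10.0%; 11 and 2 without the experiment term, 27.5% and 5.00%). Glra3, a glycine receptor subunit, rose from 4.13 ± 1.01 to 9.89 ± 2.11 CPM (1.24 ± 0.15), the calcium buffer Calb1 from 16.3 ± 6.27 to 36.4 ± 8.12 CPM (1.17 ± 0.20) and Gabra4 from 26.5 ± 3.97 to 46.9 ± 10.2 CPM (0.81 ± 0.07), while the GABA-B receptor subunit Gabbr2 fell by 0.38 ± 0.06.

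Of 49 voltage-gated channel genes 20 rose and 8 fell (40.8% and 16.3%, against 20.2% and 21.5% of all genes). Without the experiment term 8 rose and 4 fell (16.3% and 8.16%, against 11.2% and 12.8%). The largest rise was in Kcnc2, a fast potassium channel, at 18.9, 15.5, 21.8 and 19.7 CPM in the controls and 38.4, 37.9, 50.3 and 37.5 CPM with shRNA 2 (1.11 ± 0.07). The calcium channel subunit Cacnb4 rose by 0.93 ± 0.06 and the sodium channel subunit Scn2b by 0.91 ± 0.05, from 87.8 to 165 CPM, and Kcnd3 fell by 0.65 ± 0.05. Of 45 neuropeptides and their receptors (with serotonin and trophic factor receptors) 25 rose and 4 fell (55.6% and 8.89%; 16 and 2 without the experiment term, 35.6% and 4.44%), with a median of 0.46. Their levels were low: Vipr1, a receptor of vasoactive intestinal peptide, was at 3.90, 3.21, 4.35 and 1.96 CPM in the controls and 7.15, 8.48, 8.24 and 5.57 CPM with shRNA 2 (1.12 ± 0.16), Crhbp, which binds corticotropin-releasing hormone, at 1.02 and 2.39 CPM (1.14 ± 0.24), and the orexin receptor Hcrtr2 at 1.92 and 4.25 CPM (1.12 ± 0.17). The abundant member Ntrk2, the receptor of BDNF, fell from 1207 ± 155 to 938 ± 134 CPM (-0.37 ± 0.05).

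Of 39 genes induced by neuronal activity 18 rose and 5 fell (46.2% and 12.8%, against 20.2% and 21.5% of all genes), with a median of 0.21. Without the experiment term 10 rose and 4 fell (25.6% and 10.3%, against 11.2% and 12.8%). Egr4, an early growth response factor, was at 12.5, 18.9, 18.2 and 10.9 CPM in the controls and 26.6, 40.3, 30.3 and 28.6 CPM with shRNA 2 (1.06 ± 0.14), and Arc, a regulator of AMPA receptor removal, at 8.17, 10.8, 9.50 and 8.26 and 13.9, 19.1, 13.5 and 12.5 CPM (0.67 ± 0.09). Gadd45g (-0.53 ± 0.09), Crem (-0.52 ± 0.09) and the phosphatase Dusp1 (-0.52 ± 0.10) fell. Of 36 genes of striatal-type signalling, a set often lowered by mutant huntingtin, 14 rose and 4 fell (38.9% and 11.1%; 9 and 2 without the experiment term, 25% and 5.56%; median 0.20). Ppp1r1b, the dopamine-regulated phosphatase inhibitor DARPP-32, was at 3.78, 3.50, 5.65 and 3.51 CPM in the controls and 9.78, 7.06, 10.5 and 9.44 CPM with shRNA 2 (1.15 ± 0.13), without overlap, and at 8.12 CPM in 25Q. Itpka rose by 1.08 ± 0.17 and the dopamine receptor Drd2 by 1.01 ± 0.21, and the phosphatase Ptpn5 (STEP) fell from 151 ± 28.1 to 83.3 ± 5.12 CPM (-0.85 ± 0.07).

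Genes tied to Twist1 by function were examined as a list of epithelial-mesenchymal transition genes, bHLH partners and Id factors. Of 31 tested members, Twist1 included, 15 fell and 2 rose (48.4% and 6.45%, against 21.5% and 20.2% of all genes), with a median of -0.16. Without the experiment term 11 fell and 1 rose (35.5% and 3.23%, against 12.8% and 11.2%). Mmp14, a membrane-bound matrix protease, fell from 41.1 ± 8.43 to 26.4 ± 4.48 CPM (-0.63 ± 0.07) and Pdgfrb also fell (-0.64 ± 0.11), while the members that rose were Tgfbr1, a TGF-beta receptor (0.43 ± 0.09), and Postn, a matrix protein of mesenchymal cells, at 1.60 and 3.42 CPM (1.03 ± 0.25, not called without the experiment term). Among the E-protein partners, named for their role after their values were seen, Tcf3 and Tcf12 were -0.27 ± 0.05 and -0.25 ± 0.05 log2 units from the control, both called, and Tcf4 was 0.02 ± 0.05, not called. Snai1, Snai2 and Twist2 had at most 21 summed counts in either group and were not tested. Several of the members that fell (Pdgfra, Vim, Pdgfrb) are also on the marker lists of glia, progenitors or mural cells. In the activin, BMP and TGF-beta pathway 11 of 45 rose and 9 fell (24.4% and 20%), near the 20.2% and 21.5% of all genes (5 and 5 without the experiment term, 11.1% and 11.1%). Apart from Acvr1c, the ligand Bmp2 rose from 3.03 to 5.28 CPM (0.79 ± 0.17), and the transducer Smad9 and the follistatin-like Fstl4 fell (-0.45 ± 0.08 and -0.78 ± 0.12).

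Tbr1 (ENSMUSG00000035033, chr2:61802930-61814114), a T-box factor that specifies early-born cortical projection neurons, was the most changed of 39 genes of cortical neuron identity. It was at 62.2, 47.1, 55.8 and 45.0 CPM in the controls and 26.1, 23.1, 20.4 and 21.7 CPM with shRNA 2, without overlap (-1.19 ± 0.07, adjusted p = 3.78e-14), and at 56.5, 51.4, 58.1 and 46.3 CPM with shRNA 1, a difference between hairpins of -1.22 ± 0.07. In 25Q neurons it stood at 83.0 ± 5.02 CPM. Of the 39, 8 rose and 11 fell (20.5% and 28.2%, against 20.2% and 21.5% of all genes; 14 and 9 without scaling, 35.9% and 23.1%, against 29.0% and 15.4%). Lmo4 fell by 0.50 ± 0.06 and Mdga1 fell by 0.59 ± 0.11, while Rora, a nuclear receptor of layer-specific neurons, rose by 0.57 ± 0.06. Of 33 nuclear receptors 10 rose and 6 fell (30.3% and 18.2%; 8 and 3 without the experiment term, 24.2% and 9.09%), and Esr1, an estrogen receptor, went from 1.95, 1.11, 1.70 and 1.39 to 3.92, 3.23, 4.57 and 3.61 CPM (1.27 ± 0.19). Pgr, the progesterone receptor, rose from 23.1 ± 2.67 to 39.9 ± 3.86 CPM (0.78 ± 0.07). Of 56 axon guidance and adhesion genes 21 rose and 8 fell (37.5% and 14.3%; 12 and 6 without the experiment term, 21.4% and 10.7%), with Sema4a (0.64 ± 0.05) and Sema3e (0.61 ± 0.12) higher and the semaphorin receptors Plxna1 (-0.45 ± 0.05) and Plxnb1 (-0.44 ± 0.05) lower.

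Of 37 genes of the integrated stress and unfolded protein responses 15 rose and 4 fell (40.5% and 10.8%, against 20.2% and 21.5% of all genes; 9 and 1 without the experiment term, 24.3% and 2.70%, against 11.2% and 12.8%). Atf4, the transcription factor of the integrated stress response, was at 161, 149, 162 and 145 CPM in the controls and 275, 214, 237 and 219 CPM with shRNA 2 (0.61 ± 0.07), and its target Trib3 rose by 0.75 ± 0.15, while the endoplasmic reticulum sensor Atf6 fell by 0.31 ± 0.05. Atf5, another factor of the integrated stress response, fell from 129 to 106 CPM (-0.28 ± 0.05, not called without the experiment term). Of 35 p53 targets and apoptosis genes 9 rose and 5 fell (25.7% and 14.3%). Without the experiment term 4 rose and 3 fell (11.4% and 8.57%), and without scaling 15 and 3 (42.9% and 8.57%, against 29.0% and 15.4% of all genes). The higher share was near that of all genes without the experiment term (11.2%). The largest rises were in Pidd1 (0.94 ± 0.18) and the death receptor Tnfrsf10b (0.92 ± 0.17), and Trp53 itself fell by 0.30 ± 0.07. Of 29 interferon and antigen presentation genes tested (of 43) 9 rose and 2 fell (31.0% and 6.90%; 3 and 2 without the experiment term, 10.3% and 6.90%). Stat2 rose from 23.2 ± 6.31 to 38.7 ± 9.85 CPM (0.73 ± 0.11) and Psmb8 by 0.82 ± 0.26, and Tapbp fell by 0.44 ± 0.06. Chaperones and heat shock factors were balanced at 7 higher and 7 lower of 40 (17.5% and 17.5%; 14 and 4 without scaling, 35.0% and 10.0%; 5 and 4 without the experiment term, 12.5% and 10.0%), from Hsp90ab1 at 1150.1 ± 124 and 1502 ± 132 CPM (0.39 ± 0.05) to Hspa12a, which fell from 113 ± 4.21 to 59.6 ± 3.81 CPM (-0.92 ± 0.05).

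Of 43 chromatin regulators 3 rose and 14 fell (6.98% and 32.6%, against 20.2% and 21.5% of all genes). Without scaling 8 rose and 10 fell (18.6% and 23.3%, against 29.0% and 15.4%), and without the experiment term 1 rose and 8 fell (2.33% and 18.6%, against 11.2% and 12.8%). Those that fell included Kdm6b, a demethylase of histone H3 lysine 27, at 43.6, 36.2, 54.9 and 43.4 CPM in the controls and 26.5, 23.4, 26.2 and 32.4 CPM with shRNA 2 (-0.71 ± 0.08), and the Polycomb proteins Phc1 (-0.47 ± 0.06) and Cbx2 (-0.45 ± 0.11). Of 43 cell cycle and replication genes 3 rose and 14 fell (6.98% and 32.6%; 1 and 2 without the experiment term, 2.33% and 4.65%). Ccne2, a cyclin of S-phase entry, went against the list and rose from 6.59 ± 0.905 to 12.2 ± 2.79 CPM (0.87 ± 0.11). The mitotic genes Mki67 and Top2a are also on the progenitor list.

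**Figure D5:**
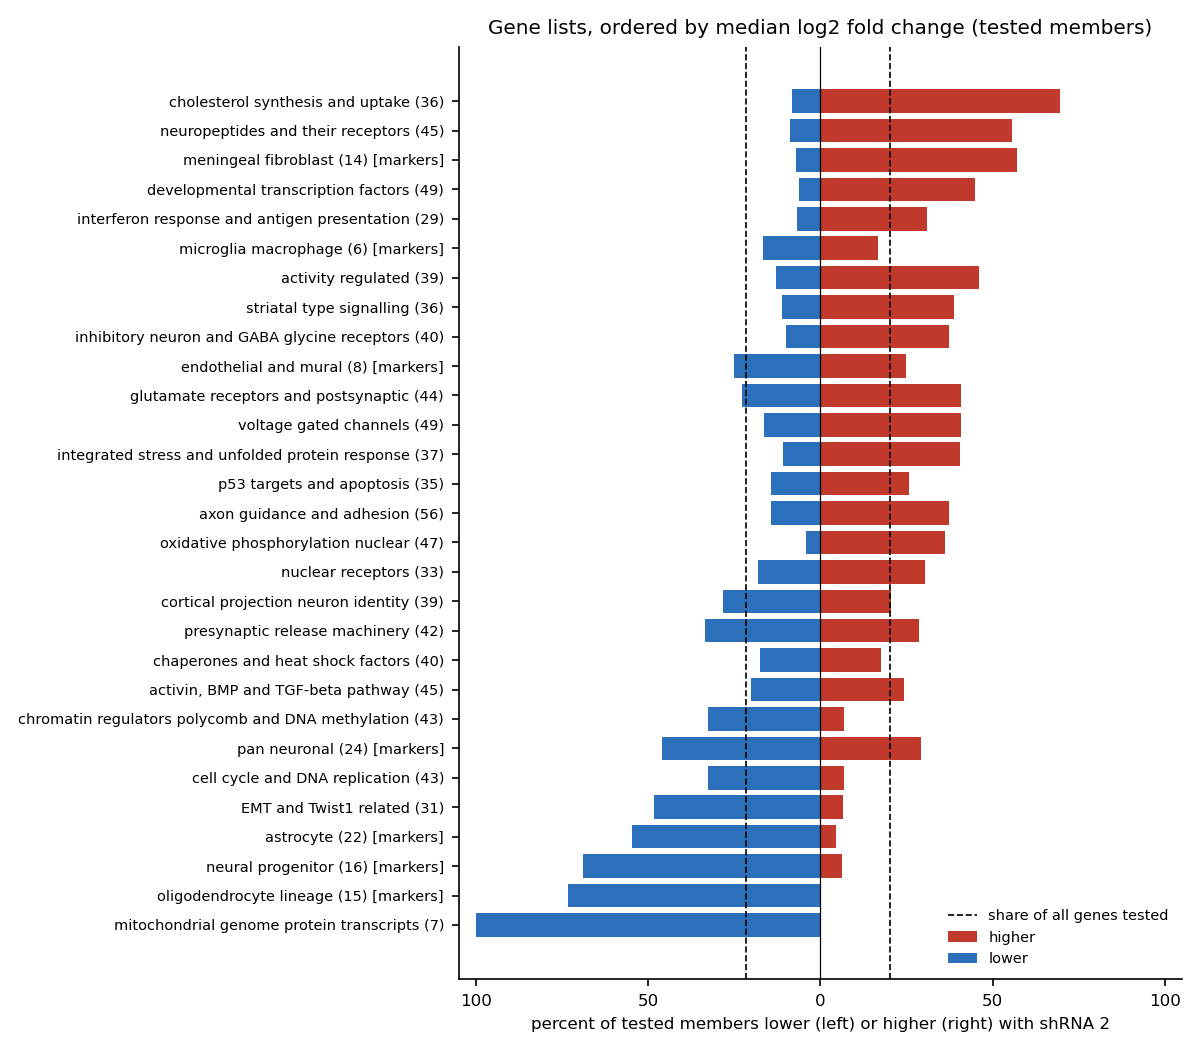
Bars give the percent of tested members of each list that were higher (red, right) or lower (blue, left) with shRNA 2 at an adjusted p under 0.05, with the number tested in brackets, and dashed lines mark the shares of all genes tested, 20.2% and 21.5%. Cholesterol synthesis, neuropeptides, meningeal markers and developmental factors stand at one end, and mitochondrial-genome, oligodendrocyte and progenitor genes at the other.

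The hairpins were compared directly through the fit of shRNA 2 with shRNA 1 in 72Q, which uses no control library. Of the 152 genes that rose at least 2-fold over the control, 114 were also higher than with shRNA 1, where 25.9% of all genes were, and of the 65 that fell at least 2-fold, 52 were lower than with shRNA 1 (27.3% of all genes). The shRNA 2 libraries enter both comparisons, so these counts are a description. Genes were also named for being called against shRNA 1 while shRNA 1 against the control had an unadjusted p over 0.05. That choice fixes that they differ between the hairpins, and it does not show that shRNA 1 left them unchanged. The largest falls among them included Elavl3, Mfsd9, Bean1, Zfp362 and Tbr1, and the largest rises Gpr101, Sytl1, Arhgef16, Glp1r and Baiap3. As a description, their differences from shRNA 1 ran from -1.50 ± 0.05 (Elavl3) to 1.93 ± 0.15 (Gpr101). Other leading genes moved in the same direction with both hairpins and by different amounts, as side-by-side values show: Sh3bgrl2 was 1.86 ± 0.08 with shRNA 2 and 1.03 ± 0.09 with shRNA 1, Acvr1c 2.14 ± 0.17 and 1.52 ± 0.19, Wiz -1.29 ± 0.06 and -0.78 ± 0.06, and Miga1 0.96 ± 0.06 and 0.81 ± 0.06. These pairs share the control libraries. For Cacng3 the 2 values were 0.97 ± 0.06 and 1.03 ± 0.06.

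Fold changes were related weakly to GC content and length, and the share of genes called depended strongly on level. Genes were divided into 5 bins of equal number. From the scarcest to the most abundant bin, the share lower went from 5.30% to 36.1% and the share higher from 11.5% to 22.3%. The scarcest bin held 96 of the 152 genes that rose at least 2-fold. The lists above were set beside shares of all genes, not of genes at their own level, which matters for lists of scarce or abundant members. Low shares of falls in the developmental, meningeal and neuropeptide lists, which hold many scarce members, are therefore not evidence that falls were fewer than at their level. In the bin with the lowest GC content, 26.9% were higher and 12.4% lower, with a median of 0.059 log2 units, and in the other bins the medians ran from -0.028 to 0.012. This lean was present in each experiment (0.061, 0.051, 0.082 and 0.067). By gene length the medians were 0.018 in the bin of the shortest genes and -0.024 in that of the longest, but in exp109b they were -0.020 and 0.0053. Genes that fell at least 2-fold had a median GC content of 55.2% and a median length of 4815 bp, against 49.9% and 3732 bp for all genes and 51.9% and 3402 bp for genes that rose at least 2-fold.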

How the data were processed

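RNA-seq of 16 libraries was used, with 4 in each of 4 groups, and each of the 4 experiments named in the labels holds 1 library of every group. Reads were aligned with STAR (2.0.4b) and counted with featureCounts (1.45) against GRCm38, as the submitters' processing notes list. The sources used here do not give the strand setting, the gene annotation version or how reads with several matches were treated. The authors deposited read counts, CPM and RPKM per gene for each library; the deposited CPM and RPKM values were not used in tests.

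Counts were fitted with edgeR 4.0.16 (R 4.3.3) by its quasi-likelihood test, with filterByExpr, TMM scaling, robust dispersion (biological coefficient of variation 5.24%), a prior count of 2, and group and experiment as terms over all 16 libraries. P-values were adjusted (Benjamini-Hochberg) over 15103 genes at 0.05. SE is the log2 fold change fitted without the prior count, over the root of F, whereas the fold changes printed include the prior count. CPM in the text is this scaled value, with mean ± SD. Deviations of the control and shRNA 2 libraries of 1 experiment from their group means correlated at 0.321 to 0.612, so the experiment pairs the libraries. Genes named are Twist1, the 15 largest rises and falls at 1 CPM or more with 1 sign in all experiments, 6 each at 50 CPM or more, 6 each called also against shRNA 1 with an unadjusted p over 0.05 for shRNA 1 against control, and up to 3 each per list. Some genes that this rule names are not reported here. The members and gene lists were chosen with earlier results of these data known. Alternatives were DESeq2 1.42.0, other scalings, no filter, no experiment term and left-out libraries. Bins of GC content and of level, counts of at least 2-fold and list counts under each alternative were added after the data were seen.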

Additional observations from a re-analysis of the deposited data

Results flagged for a closer look

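Each of the 37 genes named by a rule other than list membership was examined for a library far from the other 3 of its group, in the control and shRNA 2 groups (74 groups). Chance alone sets apart about 1 in 20 such groups, and 2 were found. Cacng3 in the shRNA 2 library of exp107 stood at 99.1 CPM, while the other 3 were at 72.6, 74.7 and 77.1 CPM, and the control library of exp107 was likewise the highest of its group (51.3, 39.3, 38.0 and 36.5 CPM). Zfp362 in the shRNA 2 library of exp109b stood at 36.7 CPM, while the other 3 were at 28.8, 29.8 and 30.0 CPM, and all 4 remained below every control library (72.1, 66.5, 80.4 and 74.2 CPM). Both genes stayed called when the library in question was left out, which their choice for large changes in the same data made likely.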

How the results depend on the processing

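The experiment term moved the total number of calls most, and the scaling moved the share of higher calls most (48.5% to 65.3%). The experiment term pairs libraries of 1 experiment, and without this replicate block 3621 genes were called in place of 6307, of which 1691 were higher and 1930 lower, all 3621 being shared with the main fit and none of opposite sign. Called members then numbered 5 (lower) of the oligodendrocyte lineage, 7 of astrocytes, 5 of progenitors and 16 (higher) of neuropeptides and receptors. In the other 19 alternatives (3 other scalings, no filter, DESeq2, the 8 libraries alone, exp109a and exp109b as 1 level, and each library or experiment left out) the counts of called genes stayed within 1.5 times their values. With 1 library or experiment left out, called genes numbered 4977 to 5806 (2382 to 3007 higher, 2595 to 3030 lower), those of at least 2-fold 152 to 187 higher and 59 to 97 lower, and the log2 fold change of Twist1 lay between -1.39 and -1.19. DESeq2 called 5672 genes. Apart from Twist1, the 37 genes with the largest changes were chosen for large changes in these same libraries. Keeping direction and call was therefore largely fixed by that choice, and the counts that follow are a description. No named gene changed direction in any of the 20 alternatives, and none of the 37 genes with the largest changes lost its call. Of the 139 genes named only as list members, 33 lost it in at least 1 alternative, 29 of them without the block; of those described above these are Atf5, Bcas1, Enpp6, Nkx2-2, Pdgfrb and Postn (without the block only) and Mpeg1. At these depths a gene of 1 CPM rests on few counts per library, and many developmental factors and peptide receptors are at that level.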

Other observations

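Genes of chromosome X leaned towards higher levels with shRNA 2: 146 of 534 tested were higher and 83 lower (27.3% and 15.5%), with a median of 0.052 log2 units, while among the autosomes the share higher ran from 17.5% (chromosome 4) to 23.2% (chromosome 10). Gpr101 and Pgr15l, among the 15 largest rises, lie on chromosome X. The chromosomes were looked at after the data were seen, and no test was made.

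Scn3b, a sodium channel subunit named from the channel list, differed between the hairpins by 2.08 ± 0.06 log2 units (adjusted p = 1.37e-22). It was at 254 ± 22.7 CPM with shRNA 2, 59.8 ± 6.94 CPM with shRNA 1 and 307 ± 13.1 CPM in the controls.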
